A study of Mus musculus with 12 samples.

Results

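The 43 genes described here encode proteins that carry out mitosis and chromosome segregation, and they were chosen by name from the 21899 genes of the deposited count table. All 43 were in the table, and all 43 were among the 11656 genes that passed the filter on low counts. Mitosis begins when cyclin-dependent kinase 1, bound to cyclin A or B, phosphorylates its targets and the chromosomes condense. Kinetochores built on the centromeres then attach to spindle microtubules, and the spindle assembly checkpoint holds back anaphase until all of them are attached. The anaphase-promoting complex then degrades securin and the B cyclins, separase cleaves the cohesin that joins sister chromatids, and the cell divides at the midzone. Most of these transcripts accumulate late in the cell cycle, so in bulk RNA they are read as a measure of proliferation. Macrophages grown from marrow divide in response to their growth factor, and lipopolysaccharide is known to slow that division.

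RNA was sequenced from primary bone marrow-derived macrophages of wild-type mice, cells differentiated in culture from marrow. The 4 groups had 3 libraries each: untreated control, CS-PA/CNP alone, PgLPS alone, and both agents. The labels do not spell out either agent's name and give no dose, time, sex or age, and the series title names a hydrogel meant for gum disease with high blood pressure. The titles mark most libraries as biological replicates but name no separate mice or cultures; p-values therefore reflect only how much these samples vary, and that variation may be technical.

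Each library held 14992707 to 20082900 counted reads over 13169 to 13511 genes. Levels are counts scaled to library size (CPM), scaled by library total and TMM factor, and a value per kilobase of gene length (RPKM) is used where genes are compared with each other. Differences between groups are log2 fold changes with their standard error, tested with edgeR, and a gene was called when its Benjamini-Hochberg (BH) adjusted p over all tested genes was under 0.05. Libraries also differed within groups: control library 3 held the lowest value of its group for 34 of the 43 genes, against 29.5% of all tested genes. CS-PA/CNP library 2 held the highest value of its group for 31 of the 43, and library 2 of both agents for 28, against 32.5% and 40.1% of all tested genes.

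The 8 macrophage markers had a sum per library between 20000 and 21400 CPM in control, 22800 and 24400 under CS-PA/CNP, 27700 and 29900 under PgLPS, and 27700 and 29000 under both. Of 7 stromal markers, 4 were tested and all 4 were called higher with PgLPS than in control, where 32.2% of all tested genes were. Being low in control, these 4 may have passed the filter only by their level with PgLPS. This count may therefore follow from the filter. The sum of all 7 per library ran between 0.472 and 2.71 CPM in control and between 0.607 and 2.1 under CS-PA/CNP. It ran between 5.88 and 53.8 under PgLPS and between 2.18 and 4.62 under both. Pdgfra and Lum had no read in control. The 8 neutrophil and granulocyte precursor markers reached 80.6 at the least and 101 CPM at the most in control, 64.2 and 92.9 under CS-PA/CNP, 158 and 180 under PgLPS, and 125 and 140 under both. The 7 stem and progenitor markers, whose cells also divide, reached 6.60 and 9.23 CPM in control, 4.97 and 6.75 under CS-PA/CNP, 4.55 and 7.78 under PgLPS, and 5.09 and 8.20 under both. The 9 lymphocyte markers summed to at most 16.8 CPM and the 6 erythroid markers to at most 0.804 CPM in any library, with Cd8a, Hba-a2 and Hbb-bt at 0 in all 4 groups. The part of other cell types in the results below was not tested.

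The promoters of genes expressed late in the cell cycle often carry a CHR-type element, bound by the MuvB complexes, together with CCAAT boxes, bound by NF-Y. RefSeq windows of 300 bases (250 before to 50 after the transcript start, GRCm38.p6) were found for 36 of the 43 genes, in 38 windows, and not for Ccna2, Aurkb, Incenp, Spc24, Tpx2, Kif20a or Smc4. Both strands were searched for the CHR-type letters TTTGAA and TTTAAA, for CCAAT and for the E2F-type letters GCGGGA. A CHR-type match was in 84.2% of the windows of these genes, in 19.3% of the 11970 windows of tested genes and in 27.6% of all 32851 windows. CCAAT was in 73.7%, 37.8% and 37.4% of the same windows, and GCGGGA in 42.1%, 34.9% and 20%. CCAAT together with a CHR-type match was in 71.1%, 7.58% and 10.7%. Median GC content was 59.0%, 60.7% and 52.7%. A match is a description of letters in the window and was not tested as a binding site.

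The windows of 5 genes follow. In each role the gene with the highest RPKM among those with a window was taken, and the 5 highest of these were kept. Pttg1 rose with PgLPS and the other 4 fell. The windows run 5′ to 3′ on the gene's strand, from upstream of the start into the first exon, with matches on either strand in capitals. The windows are chr11:43425932-43426231 (Pttg1, minus strand), chr4:52438971-52439270 (Smc2, plus strand), chr10:69352863-69353162 (Cdk1, minus strand), chr2:118597961-118598260 (Bub1b, plus strand) and chr4:124936868-124937167 (Cdca8, minus strand).
Pttg1: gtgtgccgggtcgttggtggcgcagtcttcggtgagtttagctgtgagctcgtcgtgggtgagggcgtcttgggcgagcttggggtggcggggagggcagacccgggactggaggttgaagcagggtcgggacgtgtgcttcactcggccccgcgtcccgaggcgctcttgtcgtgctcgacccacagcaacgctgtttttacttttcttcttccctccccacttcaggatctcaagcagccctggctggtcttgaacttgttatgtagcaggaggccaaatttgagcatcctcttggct
Smc2: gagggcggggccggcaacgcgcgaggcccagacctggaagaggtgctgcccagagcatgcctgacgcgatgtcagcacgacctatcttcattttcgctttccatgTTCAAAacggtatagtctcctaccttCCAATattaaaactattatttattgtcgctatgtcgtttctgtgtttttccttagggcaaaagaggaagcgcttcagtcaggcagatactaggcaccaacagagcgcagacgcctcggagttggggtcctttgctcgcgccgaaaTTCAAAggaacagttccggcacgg
Cdk1: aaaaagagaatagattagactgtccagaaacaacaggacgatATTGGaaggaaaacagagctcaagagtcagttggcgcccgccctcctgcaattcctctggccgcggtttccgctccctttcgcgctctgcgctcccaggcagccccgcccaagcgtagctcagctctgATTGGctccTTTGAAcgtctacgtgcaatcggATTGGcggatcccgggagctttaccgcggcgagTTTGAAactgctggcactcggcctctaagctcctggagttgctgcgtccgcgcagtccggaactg
Bub1b: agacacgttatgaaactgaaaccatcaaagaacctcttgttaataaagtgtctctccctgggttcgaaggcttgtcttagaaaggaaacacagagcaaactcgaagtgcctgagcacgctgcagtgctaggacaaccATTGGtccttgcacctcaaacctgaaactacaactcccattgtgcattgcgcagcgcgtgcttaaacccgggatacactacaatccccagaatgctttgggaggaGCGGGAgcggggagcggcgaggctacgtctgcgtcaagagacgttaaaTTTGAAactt
Cdca8: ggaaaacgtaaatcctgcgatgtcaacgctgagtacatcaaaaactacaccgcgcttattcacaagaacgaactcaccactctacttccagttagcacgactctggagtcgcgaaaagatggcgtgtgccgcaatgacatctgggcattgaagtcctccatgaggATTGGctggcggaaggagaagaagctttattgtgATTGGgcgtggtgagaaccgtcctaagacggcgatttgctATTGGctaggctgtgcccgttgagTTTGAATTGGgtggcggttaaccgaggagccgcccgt
The Cdk1 window holds TTTGAA 71 and 15 bases before the start and CCAAT, read on the other strand as ATTGG, 208, 80 and 48 bases before it. The Smc2 window holds TTTGAA on the other strand, as TTCAAA, 145 bases before and 27 bases after the start. In the Bub1b window TTTGAA lies 41 bases after the start and GCGGGA 8 bases before it. The Cdca8 window has 4 CCAAT matches, and its TTTGAA shares bases with the last of them. None of the searched letters is in the Pttg1 window, nor in those of Nuf2, Ncaph, Mad2l1 and Nusap1, which fell with PgLPS.

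PgLPS was first set against control, to ask how it changed these transcripts by itself. Of the 43 genes, 41 fell and 2 rose, Incenp and Pttg1. Across all tested genes 63.8% were called in this comparison, 31.6% of them as lower and 32.2% as higher, as shares of the tested genes. In 41 genes every PgLPS library was below every control library, against 33.1% of all tested genes, and in the other 2 every one was above, against 33.3%. A fall of at least 2-fold was called for 39 of the genes and one of at least 4-fold for 30, where 12.6% and 5.08% of all tested genes were called so. Their median log2 fold change was −2.40, beside 0.00 for all tested genes, and the median level with PgLPS was 19.1% of control. All 43 calls held under each of the 16 alternative settings. Leaving out 1 library at a time, the median ran from −2.45 to −2.27. Bulk RNA cannot tell fewer dividing cells from less of these transcripts per cell.

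**Figure D1:**
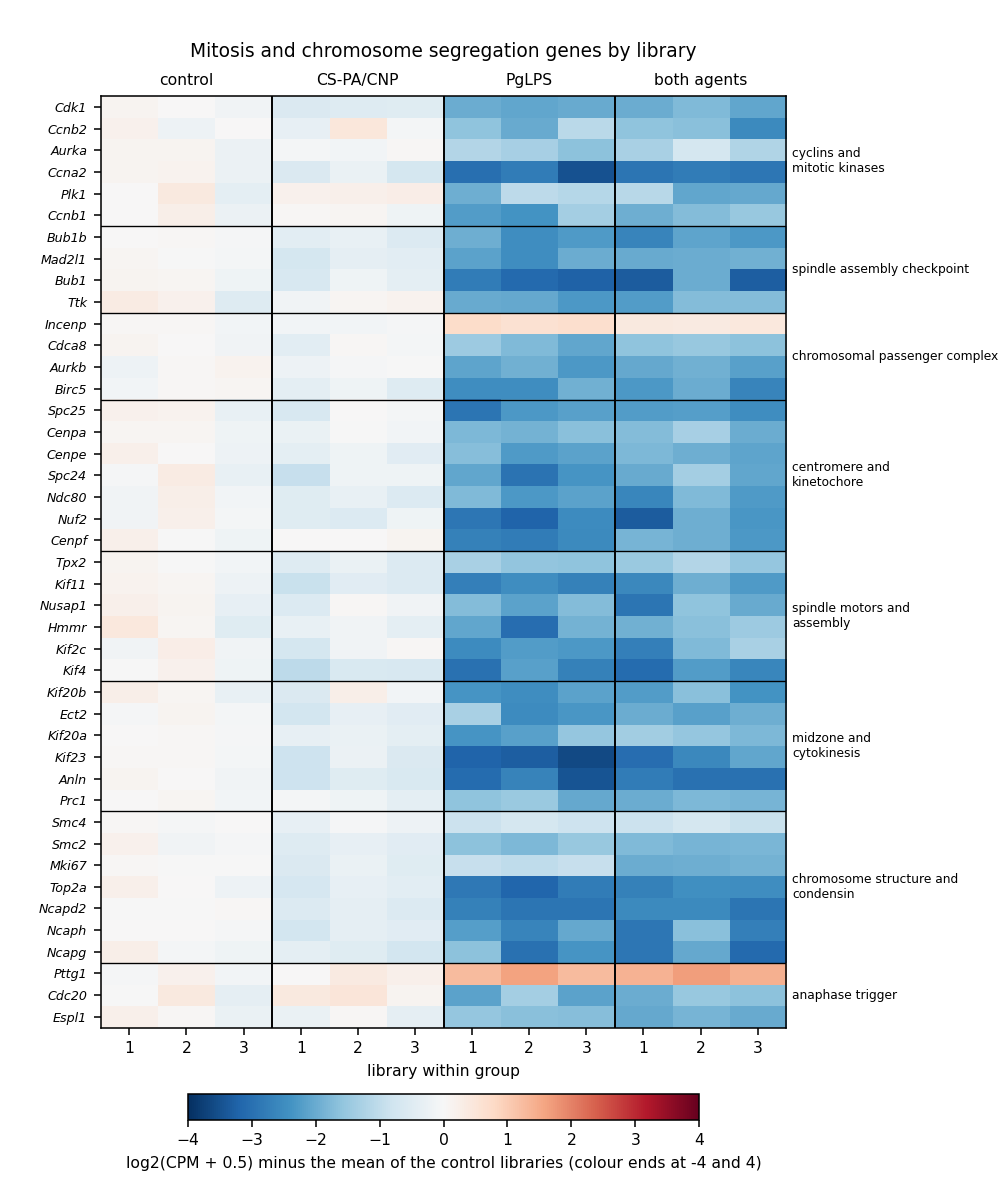
Each row is a gene, grouped by role and ordered by RPKM within it, and each column a library. Colour is log2(CPM + 0.5) minus the mean of the 3 control libraries, blue for lower and red for higher. All 6 libraries with PgLPS are blue for 41 genes and red for Incenp and Pttg1, and the 3 CS-PA/CNP libraries are pale.

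The cyclins and mitotic kinases start mitosis. Cdk1, the kinase that drives entry, was read at 23.9, 22.6 and 20.3 CPM in the control libraries, 14.6, 15.5 and 15.8 with CS-PA/CNP, 5.18, 4.87 and 5.16 with PgLPS and 5.27, 6.25 and 4.90 with both. The 3 levels fall apart without overlap into control, CS-PA/CNP and the PgLPS-treated groups, and the last 2 groups overlap. Its log2 fold change with PgLPS was −2.13 ± 0.13 (edgeR BH-adjusted p = 2.07e-11), and with CS-PA/CNP alone −0.54 ± 0.11 (adjusted p = 0.00203). Ccnb2, a B-type cyclin, stood at 5.87, 4.47 and 5.26 CPM in control, 4.03, 7.28 and 4.87 with CS-PA/CNP, 1.37, 0.909 and 2.16 with PgLPS and 1.37, 1.27 and 0.477 with both. PgLPS changed it by −1.79 ± 0.32 on the log2 scale (edgeR BH-adjusted p = 9.06e-05), while its control and CS-PA/CNP libraries interleaved. The S and G2 phase cyclin Ccna2 had the largest fall of this role with PgLPS (−3.50 ± 0.22) and the centrosomal kinase Aurka, with Tpx2 as its activator, the smallest (−1.57 ± 0.22). Plk1, which acts from entry to cytokinesis, changed by −1.66 ± 0.35 and the B-type cyclin Ccnb1 by −2.27 ± 0.28, or −2.89 without PgLPS library 3.

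The spindle assembly checkpoint genes encode the signal that blocks anaphase. Bub1b, a component of the mitotic checkpoint complex, was at 16.1, 16.5 and 15.7 CPM in control, 12, 13.0 and 10.8 with CS-PA/CNP, 3.81, 2.47 and 2.94 with PgLPS and 2.15, 3.36 and 2.86 with both. The control libraries lie close together, above all CS-PA/CNP libraries, and those above all libraries with PgLPS. Mad2l1, which encodes the checkpoint protein that binds Cdc20, was at 25.4, 23.8 and 22.8 CPM in control, 14.4, 18.6 and 17.7 with CS-PA/CNP, 5.03, 3.90 and 5.64 with PgLPS and 5.53, 5.73 and 5.99 with both. Its groups follow the same order without overlap except between PgLPS and both. The fall with PgLPS was −2.40 ± 0.17 for Bub1b (edgeR BH-adjusted p = 3.19e-10) and −2.30 ± 0.14 for Mad2l1 (adjusted p = 3.81e-11). The kinases Bub1 (−3.67 ± 0.33) and Ttk (−3.02 ± 0.36), which act at the kinetochore at the top of this signal, fell further; Ttk had 21 reads over the 3 PgLPS libraries.

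The chromosomal passenger complex corrects faulty attachments and later directs cytokinesis. Its scaffold gene Incenp went against the other members of the complex: it was at 50.2, 49.9 and 45.3 CPM in control, 44.7, 44.4 and 47.1 with CS-PA/CNP, 80.8, 74.4 and 78 with PgLPS and 64.1, 61.8 and 64.4 with both. Both groups with PgLPS lie above control and CS-PA/CNP, and the PgLPS libraries lie above those with both agents. Its rise with PgLPS was 0.68 ± 0.07 (edgeR BH-adjusted p = 5.42e-08). Cdca8, which encodes borealin, was at 15.8, 14.9 and 13.2 CPM in control, 10.7, 15.0 and 13.8 with CS-PA/CNP, 5.03, 3.90 and 3.06 with PgLPS and 4.43, 4.8 and 4.29 with both. Here control and CS-PA/CNP overlap, and so do PgLPS and both. Its fall with PgLPS was −1.89 ± 0.17 (edgeR BH-adjusted p = 1.73e-08). The kinase Aurkb (−2.41 ± 0.19) and Birc5, survivin (−2.55 ± 0.22), also fell. With PgLPS the scaffold thus stood at 161% of control and the other 3 genes of the complex at 16.8% to 27.3%.

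Centromere and kinetochore genes fell in all 7 cases with PgLPS. Spc25, a subunit of the Ndc80 complex that grips microtubules, was at 8.91, 8.80 and 6.38 CPM in control, 4.91, 8.09 and 7.51 with CS-PA/CNP, 0.610, 1.23 and 1.38 with PgLPS and 1.3, 1.33 and 1.02 with both. Cenpa, the histone H3 variant that marks centromeres, was at 10.6, 10.7 and 8.89 CPM in control, 8.34, 9.92 and 9.25 with CS-PA/CNP, 2.52, 2.34 and 2.82 with PgLPS and 2.67, 3.70 and 2.18 with both. For both genes the libraries with PgLPS lie far below the other 6, which overlap. The log2 fold change with PgLPS was −2.86 ± 0.27 for Spc25 (edgeR BH-adjusted p = 3.05e-08) and −1.97 ± 0.19 for Cenpa (adjusted p = 2.66e-08). The 4 subunit genes of the Ndc80 complex all fell, with Ndc80 at −2.41 ± 0.25, Nuf2 at −3.64 ± 0.37 and Spc24 at −3.64 ± 0.47, the last from 226 reads over the control libraries to 14 with PgLPS. Whether these falls differ from each other was not tested. Cenpf (−3.72 ± 0.29), a large kinetochore protein, and the kinesin Cenpe (−2.23 ± 0.19) also fell.

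Spindle motor and assembly genes fell in all 6 cases. Tpx2, a nucleator of spindle microtubules, was at 20.6, 18.9 and 17.8 CPM in control, 13.3, 15.9 and 12.9 with CS-PA/CNP, 7.47, 6.04 and 5.94 with PgLPS and 6.51, 8.10 and 6.13 with both. Kif11, the kinesin that pushes the spindle poles apart, was at 17.1, 16.2 and 13.4 CPM in control, 8.12, 11.1 and 10.5 with CS-PA/CNP, 1.91, 2.34 and 1.98 with PgLPS and 2.15, 3.64 and 2.86 with both. In both genes control, CS-PA/CNP and the groups with PgLPS form 3 separate levels, with PgLPS and both overlapping. Tpx2 changed by −1.57 ± 0.14 with PgLPS (edgeR BH-adjusted p = 1.21e-08) and Kif11 by −2.90 ± 0.20 (adjusted p = 2.05e-10). The others ran from −2.19 ± 0.31 in Nusap1, a microtubule-binding protein, to −3.35 ± 0.34 in the chromokinesin Kif4, with the microtubule depolymerase Kif2c at −3.17 ± 0.42 and the hyaluronan receptor and spindle protein Hmmr at −2.86 ± 0.35.

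Midzone and cytokinesis genes held the largest fall of the set. Kif20b, a kinesin of the late midzone, was at 13.4, 12 and 9.06 CPM in control, 7.40, 13.3 and 10.5 with CS-PA/CNP, 1.83, 1.62 and 2.16 with PgLPS and 2.02, 3.24 and 1.77 with both. Ect2, the exchange factor that activates RhoA at the cleavage site, was at 8.70, 9.85 and 8.61 CPM in control, 5.25, 7.07 and 6.52 with CS-PA/CNP, 3.35, 1.17 and 1.38 with PgLPS and 1.89, 1.62 and 1.98 with both. PgLPS library 1 is the high one for Ect2, yet still below every control library. With PgLPS Kif20b changed by −2.61 ± 0.26 (edgeR BH-adjusted p = 4.92e-08) and Ect2 by −2.24 ± 0.26 (adjusted p = 4.81e-07). Kif23, the motor of the centralspindlin complex, changed by −3.92 ± 0.26, to 6.67% of control, the lowest share of the 43. Anln, the anillin scaffold of the contractile ring, changed by −3.53 ± 0.22, Kif20a by −2.30 ± 0.24 and the microtubule bundler Prc1 by −1.92 ± 0.19. Counts of Kif20a, Ccna2, Kif4, Ncapg and Prc1 may have gained or lost reads through a gene on the other strand. The counting may have ignored strand (its setting is not stated). Of the exon bases of these genes, 11.1% to 29.3% overlap another gene in the GENCODE annotation of GRCm38.

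Chromosome structure genes fell in all 7 cases but by unequal amounts. Smc4, an ATPase subunit of condensin, was at 61.8, 58.3 and 60.5 CPM in control, 48.0, 58.7 and 51.8 with CS-PA/CNP, 33.1, 36.9 and 33.8 with PgLPS and 32.6, 37.1 and 32.2 with both. Smc2, its ATPase partner, was at 45.9, 36.7 and 39.7 CPM in control, 28.1, 32.0 and 29.5 with CS-PA/CNP, 12.7, 11.2 and 13.8 with PgLPS and 11.7, 10.8 and 11.1 with both. Smc2 separates control, CS-PA/CNP and the groups with PgLPS, whereas for Smc4 control and CS-PA/CNP overlap. The fall with PgLPS was −0.80 ± 0.09 for Smc4 (edgeR BH-adjusted p = 1.52e-07), the smallest of the 41, and −1.70 ± 0.11 for Smc2 (adjusted p = 6.27e-11). The condensin I subunits Ncapd2 (−2.98 ± 0.12), Ncapg (−2.62 ± 0.32) and Ncaph (−2.45 ± 0.25) fell further. Top2a, the topoisomerase that untangles sister chromatids, changed by −3.01 ± 0.14. Mki67, the proliferation marker Ki-67 that coats mitotic chromosomes, changed by −0.95 ± 0.08, less than 2-fold.

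Genes of the anaphase trigger moved in both directions. Pttg1, which encodes securin, the inhibitor of separase, was at 14.4, 16.9 and 13.9 CPM in control, 15.3, 19.6 and 17.2 with CS-PA/CNP, 36.7, 46.6 and 37.2 with PgLPS and 40.4, 48.4 and 40.9 with both. All 6 libraries with PgLPS lie above the other 6, and library 2 is the high one in every group. Its rise with PgLPS was 1.41 ± 0.12 (edgeR BH-adjusted p = 5.98e-09). Cdc20, the activator of the anaphase-promoting complex, was at 5.03, 6.79 and 3.86 CPM in control, 6.79, 7.39 and 5.54 with CS-PA/CNP, 0.762, 1.69 and 0.780 with PgLPS and 0.911, 1.45 and 1.29 with both. Its control and CS-PA/CNP libraries overlap, and its fall with PgLPS was −2.27 ± 0.31 (edgeR BH-adjusted p = 2.92e-06). Espl1, separase itself, changed by −1.82 ± 0.19, so that the inhibitor stood at 266% of control with PgLPS and the protease at 28.3%.

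**Figure D2:**
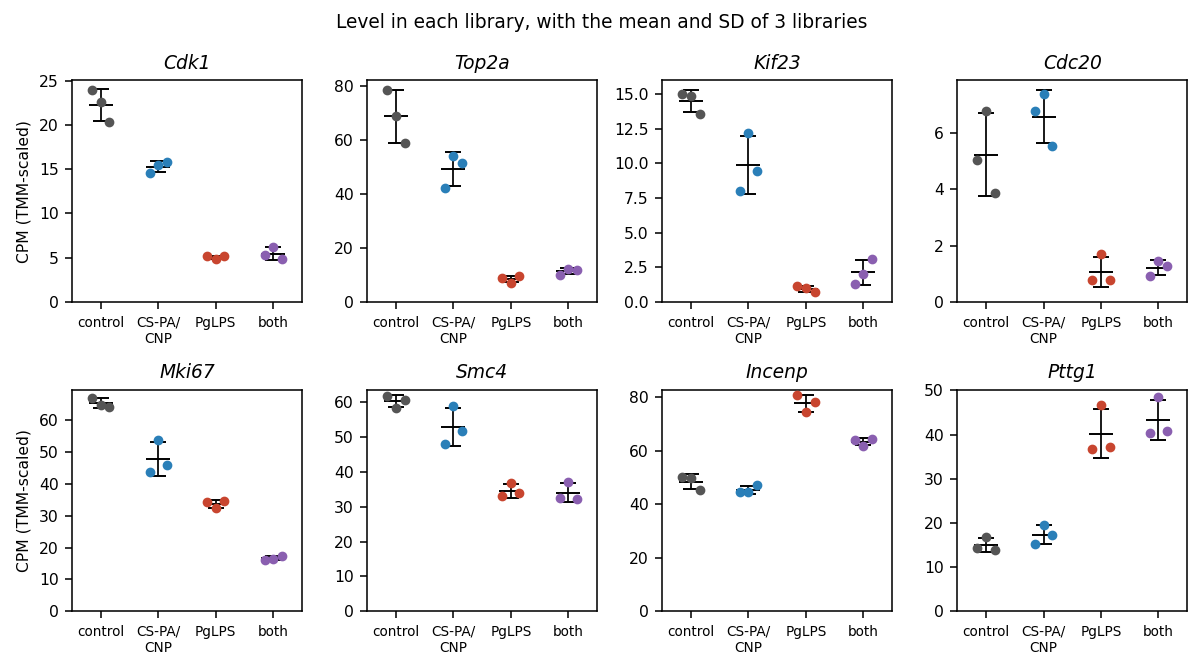
CPM of 8 genes in each library (points), with the mean and SD of 3 libraries; each panel has its own linear axis from 0. Cdk1, Top2a, Kif23 and Cdc20 are low in both groups with PgLPS, Mki67 falls again from PgLPS to both agents, Smc4 falls less, and Incenp and Pttg1 are highest with PgLPS present.

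The 43 genes summed to 695 ± 48 CPM in control, 551 ± 52 with CS-PA/CNP, 280 ± 5.0 with PgLPS and 260 ± 18 with both (SD, n = 3). Incenp, Pttg1, Mki67 and Smc4, chosen because they rose or fell least with PgLPS, so that a larger share there follows from the choice, made up 27.2% of that sum in control, 29.7% with CS-PA/CNP, 66.6% with PgLPS and 60.5% with both. The other 39 genes summed to 506 CPM in control, 387 with CS-PA/CNP, 93.3 with PgLPS and 103 with both. No gene of the set was under 1 CPM in control or with CS-PA/CNP, but 9 were with PgLPS and 8 with both. Per kilobase, Pttg1 had the highest mean level over the 12 libraries at 14.5 RPKM, followed by Incenp at 13.6 and Smc4 at 8.71, and Cenpf the lowest at 0.196. Depth therefore limits the low genes most: standard errors in the PgLPS comparison ran from 0.07 to 0.47.

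CS-PA/CNP alone was set against control to ask how the same genes responded without PgLPS. It lowered 12 of the 43 and raised none: Cdk1, Ccna2, Bub1b, Mad2l1, Kif11, Kif4, Tpx2, Anln, Mki67, Top2a, Smc2 and Ncapd2. In edgeR 20 of the genes were lower and 0 higher at an unadjusted p under 0.05. Of all 11656 tested genes, 2757 were under that p in either direction. DESeq2 called the same numbers as edgeR after adjustment, 12 and 0. Among all tested genes 12.3% were called, 5.61% as lower and 6.67% as higher. The groups did not overlap in 21 genes, all lower with CS-PA/CNP, against 15.5% of all tested genes (15.9% were higher without overlap), while 22 overlapped. The median log2 fold change of the 43 was −0.36, beside 0.00 for all tested genes, and every fall was under 2-fold. By role, 4 of 7 chromosome structure genes fell, 3 of 6 spindle genes, 2 of 4 checkpoint genes, 2 of 6 cyclins and kinases and 1 of 6 midzone genes. Of the passenger complex, the centromere and kinetochore genes and the anaphase trigger, edgeR and DESeq2 called 0 genes, with 1, 2 and 0 lower at an unadjusted edgeR p under 0.05.

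The 7 chromosome structure genes ran from −0.19 ± 0.08 in Smc4, not called, to −0.59 ± 0.26 in Ncapg, not called. Mki67 went from 67.0, 64.7 and 64.0 CPM in control to 43.7, 53.9 and 46.0 with CS-PA/CNP (−0.45 ± 0.08, edgeR BH-adjusted p = 0.000658). Top2a, at 78.4, 68.6 and 58.9 CPM in control, stood at 42.2, 54.0 and 51.3 (−0.48 ± 0.11, adjusted p = 0.00688), and Ncapd2, at 34.8, 34.9 and 36.2, at 23.8, 27.7 and 24.1 (−0.49 ± 0.10, adjusted p = 0.00257). No CS-PA/CNP library of these genes reached the lowest control library. Kif4 had the lowest share of control, 55.4% (−0.85 ± 0.26, edgeR BH-adjusted p = 0.0366). Among the genes not called, shares of control ran from 66.7% in Ncapg to 126% in Cdc20, with Kif23 at 68.3%, Ect2 at 69.3%, Ccnb1 at 98.5% and Plk1 at 115%, examples chosen after their values were seen. Whether the called and uncalled genes differ from each other was not tested.

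Several of these calls rest on few libraries. Without control library 1, or without CS-PA/CNP library 1, 5 genes were called in place of 12. Cdk1, Mki67, Smc2 and Ncapd2 were called in all 16 alternative settings. Bub1b (edgeR BH-adjusted p = 0.0498) lost its call without any 1 of the control or CS-PA/CNP libraries, with adjusted p from 0.059 to 0.21. It also lost it without PgLPS library 3 (adjusted p = 0.062) or library 3 of both agents (adjusted p = 0.056), and kept it in 8 of the 16 settings. Kif4 lost its call without any 1 of the control or CS-PA/CNP libraries, with adjusted p from 0.056 to 0.15. Ccna2 (edgeR BH-adjusted p = 0.0352) and Tpx2 (adjusted p = 0.024) lost it in 4 such settings each, Kif11 and Anln in 2, and Mad2l1 and Top2a in 1. Kif23, at −0.55 ± 0.18, was just outside (edgeR BH-adjusted p = 0.0562) and was called with library totals, with no filter, with the 2 groups alone and in 5 leave-one-out settings.

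**Figure D3:**
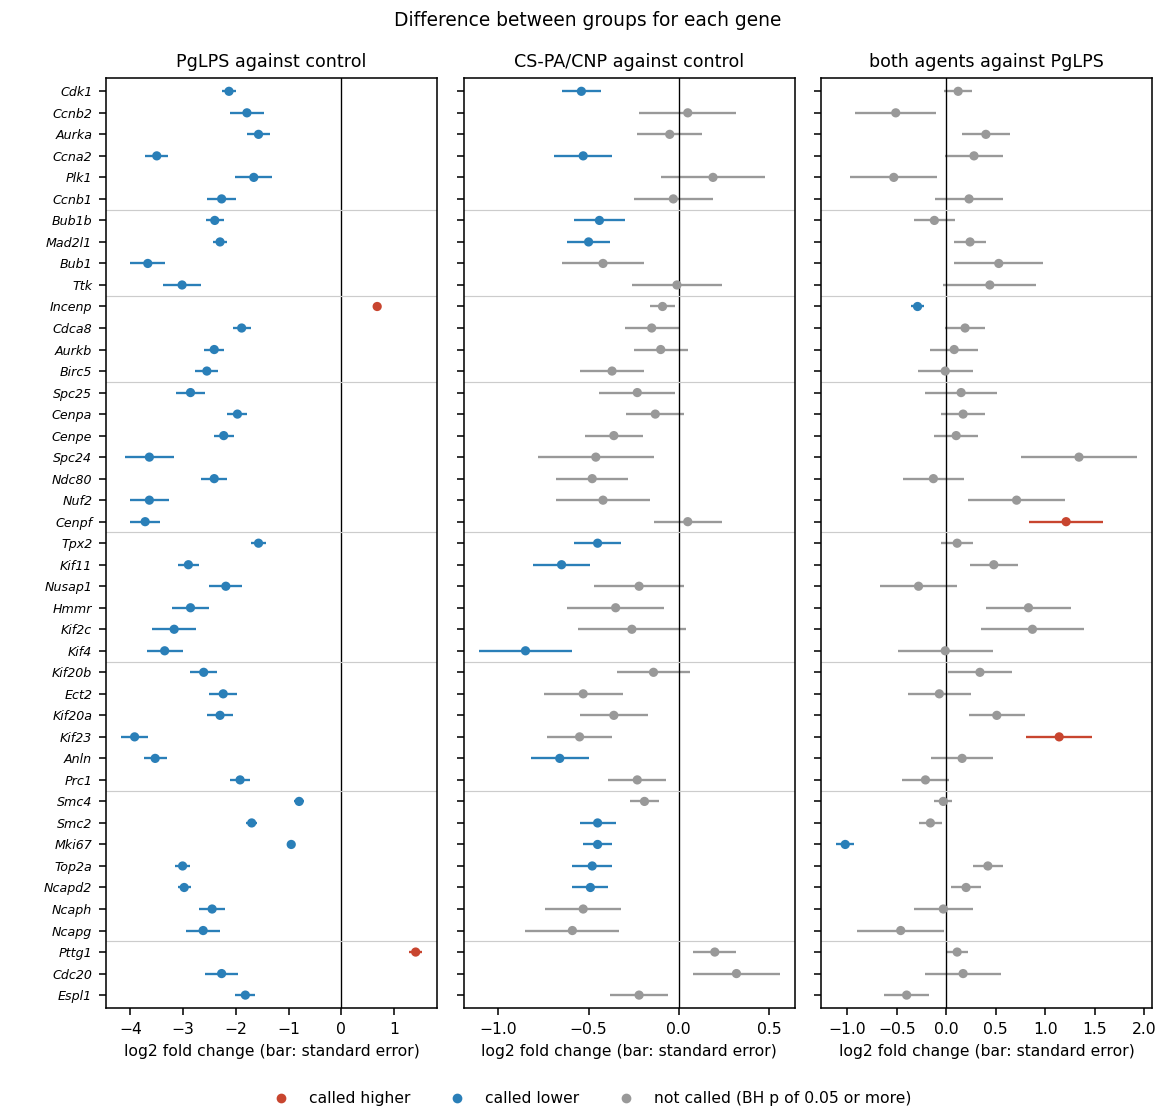
Log2 fold change of each gene (point) with its standard error (bar) in 3 comparisons, on separate axes; red is called higher, blue called lower and grey not called. PgLPS moves all 43 genes, 41 of them down; CS-PA/CNP lowers 12; between PgLPS and both agents 2 are called in each direction.

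Cells given both agents were set against those given PgLPS, which asks what CS-PA/CNP added in its presence. It shares the PgLPS libraries with the first comparison, so the values stand side by side and are not used to support each other. Of the 43 genes, 2 were higher with both agents, Cenpf and Kif23, and 2 lower, Mki67 and Incenp, and the other 39 were not called. Across all tested genes 19.5% were called, 9.42% as higher and 10% as lower, so the share called here was below that. Libraries did not overlap in 4 genes on the higher side and 3 on the lower, against 15.0% and 16.4% of all tested genes. The median was 0.15, beside −0.01 for all tested genes. The median level was 20.2% of control with both agents, beside 19.1% with PgLPS.

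Mki67 had the clearest difference. It stood at 34.4, 32.3 and 34.5 CPM with PgLPS and 16.1, 16.5 and 17.4 with both agents, with no overlap. Its log2 fold change was −1.02 ± 0.09 (edgeR BH-adjusted p = 1.21e-07), which left it at 25.5% of control with both agents against 51.7% with PgLPS. Mki67 was thus highest in control, then with CS-PA/CNP, PgLPS and both agents in that order, and no 2 groups overlapped. Incenp fell from 80.8, 74.4 and 78 to 64.1, 61.8 and 64.4 CPM, by −0.29 ± 0.07 (edgeR BH-adjusted p = 0.004). Its level with both agents remained above control (131%), where CS-PA/CNP alone gave 93.8% and no call.

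The genes called higher had few reads. Kif23 had 1.14, 1.04 and 0.720 CPM with PgLPS, 43 reads in all, and 1.3, 2.02 and 3.07 with both, 100 reads in all. The difference was 1.14 ± 0.33 on the log2 scale (edgeR BH-adjusted p = 0.0196). The call was lost without PgLPS library 3 (adjusted p = 0.10), without library 3 of both agents (adjusted p = 0.12) and with only the 2 groups in the fit (adjusted p = 0.071). Cenpf had 0.381, 0.325 and 0.480 CPM with PgLPS, 18 reads in all, and 1.11, 0.984 and 0.681 with both, 44 reads in all. Its difference, 1.21 ± 0.37 (edgeR BH-adjusted p = 0.0273), lost its call without PgLPS library 1 or 2, without library 1 or 2 of both agents (adjusted p from 0.068 to 0.096) and with the 2 groups alone (adjusted p = 0.10). Top2a, at 9, 7.08 and 9.42 CPM with PgLPS and 10, 12.1 and 11.8 with both, did not overlap but was not called (0.42 ± 0.15, edgeR BH-adjusted p = 0.0653). DESeq2 called it (BH-adjusted p = 0.046). So did edgeR with library totals, with no filter, and without control library 1, control library 3 or CS-PA/CNP library 1. It stayed uncalled in 10 of the 16 alternative settings.

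The interaction tests whether CS-PA/CNP acted differently with PgLPS than without. It was positive for Cdk1, Mad2l1, Kif11, Kif23, Top2a and Ncapd2 and negative for Mki67. These 7 of the 43 were near the 15.8% of all tested genes called (7.46% positive, 8.34% negative). In 5 of the 6 positive genes CS-PA/CNP lowered the level without PgLPS and no fall was called with it: for Kif11 the effect was −0.65 ± 0.16 without and 0.48 ± 0.24 with PgLPS, an interaction of 1.13 ± 0.29 (edgeR BH-adjusted p = 0.00946). Top2a had an interaction of 0.90 ± 0.19 (adjusted p = 0.00234), and Kif23, the sixth, 1.69 ± 0.38 (adjusted p = 0.00373), from −0.55 ± 0.18 and 1.14 ± 0.33. For Mki67 the effect went further with PgLPS, −1.02 ± 0.09 against −0.45 ± 0.08, an interaction of −0.57 ± 0.12 (adjusted p = 0.00226). The interaction of Cdk1, 0.66 ± 0.18 (adjusted p = 0.0158), was lost without library 2 of both agents (0.55, adjusted p = 0.059). The median over the 43 genes was 0.45, beside −0.01 for all tested genes, and 0.29 without that library.

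**Figure D4:**
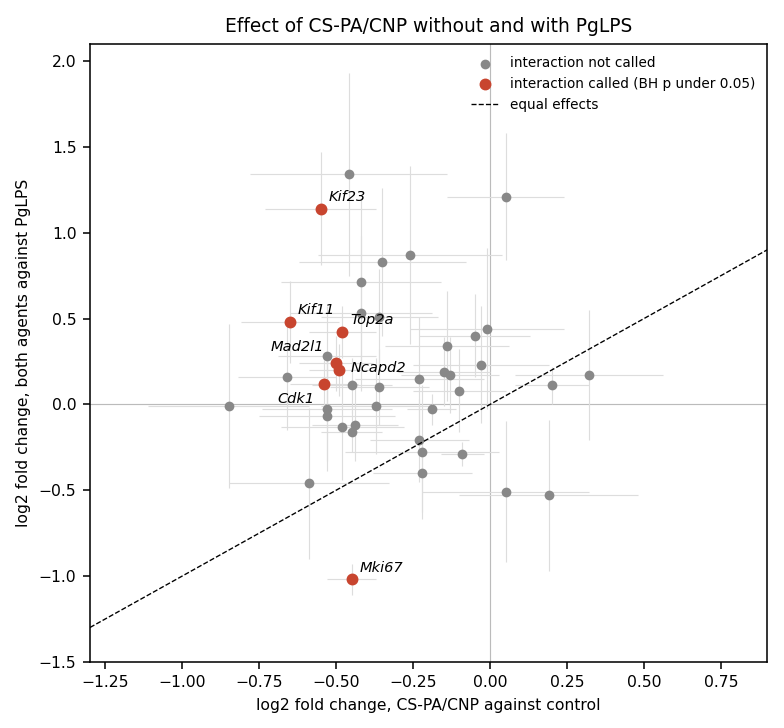
Each point is 1 of the 43 genes, with the log2 fold change of CS-PA/CNP against control on the x axis and of both agents against PgLPS on the y axis; bars are standard errors and the dashed line marks equal effects. The 7 genes whose interaction was called are red: 6 lie above the line and Mki67 below it.

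Set directly against control, cells with both agents differed in all 43 genes. This comparison shares its control libraries with those of each agent alone and its treated libraries with the one above. Again 41 genes were lower and Incenp (0.39 ± 0.07) and Pttg1 (1.52 ± 0.12) were higher, where 58.0% of all tested genes were called (28.4% lower, 29.7% higher). In each of the 43 the groups did not overlap, against 31.4% of all tested genes on the lower side and 31.7% on the higher. The median was −2.30, beside −0.01 for all tested genes, with 40 genes lower by at least 2-fold and 33 by at least 4-fold, where 9.93% and 3.52% of all tested genes were. The lowest shares of control were in Kif4 at 9.42%, Anln at 9.62% and Ccna2 at 10.7%. Scaled by library totals rather than TMM, the difference for Incenp was 0.03 (edgeR BH-adjusted p = 0.75) and not called. Library totals moved the median of all genes by −0.36 here and by −0.41 for PgLPS against control, and the values in the text are on the TMM scale. Bub1, whose reads with both agents lie mostly in library 2, was at −3.14 ± 0.31 and at −4.12 without that library, Ncapg went from −3.08 to −3.75 and Ncaph from −2.48 to −3.11 without it, and Plk1 from −2.19 to −2.86 without library 1.

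Other genes of mitosis were then counted by function, beside 31.6% of all tested genes called lower with PgLPS and 32.2% called higher. Of 27 other kinetochore and checkpoint genes, 21 fell and 3 rose with PgLPS (median −1.95, against 0.00 for all tested genes). The risers were Bub3, a checkpoint protein, from 75 ± 8.8 to 86.0 ± 5.7 CPM (0.20 ± 0.08, edgeR BH-adjusted p = 0.037), Zwint, from 68.2 ± 0.7 to 78.1 ± 3.9 (0.20 ± 0.07, adjusted p = 0.017), and Cenpl (0.46 ± 0.17, adjusted p = 0.026). With Mis12 (39.3 ± 0.94 and 43.8 ± 2.1 CPM, not called), Bub3 and Zwint were the genes of this list with the highest CPM. Of 19 other mitotic kinesin and spindle genes, 17 fell and 0 rose in edgeR, also at an unadjusted p under 0.05 and in DESeq2, with a median of −2.13. Of all 11656 tested genes, 7778 were under that unadjusted p in either direction. The spindle pole protein gene Numa1 fell from 274 ± 8.6 to 138 ± 11 CPM (−0.99 ± 0.07, edgeR BH-adjusted p = 3.6e-10), while Ckap5 (75.3 ± 6.5 and 69.6 ± 4.9) and Kif2a (37.9 ± 2.6 and 40.3 ± 5.6) were not called.

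The cohesin, anaphase-promoting complex, condensin II and entry lists held genes moving in both directions or only down. With PgLPS 31.6% of all tested genes were called lower and 32.2% higher, and the anaphase-promoting complex list lay near those shares. Of 13 cohesin genes, 8 fell and 1 rose (median −0.55), the riser being the release factor Wapl, from 92.5 ± 4.7 to 124 ± 11 CPM (0.42 ± 0.07, edgeR BH-adjusted p = 6.5e-05). The cohesin subunit Stag2 and its regulator Pds5a were not called with PgLPS. Of 18 genes of the anaphase-promoting complex and its regulators, 4 fell and 6 rose (median 0.06), and the subunits with the highest CPM, Anapc5, Anapc2 and Anapc1, were not called. All 3 condensin II genes fell: Ncapg2 (−1.89 ± 0.10), Ncapd3 (−1.28 ± 0.13) and Ncaph2 (−0.32 ± 0.08). Of 10 regulators of mitotic entry, 8 fell and 1 rose (median −1.87): Wee1, the kinase that restrains Cdk1, fell from 21.0 ± 0.54 to 3.46 ± 0.40 CPM, the phosphatase gene Cdc25a was not called, and Ensa, an inhibitor of the phosphatase that opposes Cdk1, rose from 123 ± 1.8 to 163 ± 2.0 CPM (0.40 ± 0.06, edgeR BH-adjusted p = 5.0e-06).

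CS-PA/CNP alone lowered 2 of the 27 kinetochore genes, 1 of the 19 spindle genes, 3 of the 13 cohesin genes, 1 of the 3 condensin II genes and 1 of the 18 anaphase-promoting complex genes, where 5.61% of all tested genes were called lower. The medians were −0.32 for the kinetochore genes, −0.21 for the spindle genes, −0.25 for cohesin, −0.29 for condensin II, 0.00 for the anaphase-promoting complex and −0.06 for the entry regulators, beside 0.00 for all tested genes. Fold changes were below 0 in 24 of the 27 kinetochore genes and in all 13 cohesin genes, most of them not called. Of the 10 entry regulators edgeR and DESeq2 called 0, with 3 lower at an unadjusted edgeR p under 0.05. For CS-PA/CNP alone, 2757 of all 11656 tested genes were under that p in either direction. Between both agents and PgLPS, Wee1 (0.52 ± 0.17, edgeR BH-adjusted p = 0.042) and Ncapg2 (0.37 ± 0.11, adjusted p = 0.026) were higher and the kinase Nek2 was lower (−1.55 ± 0.53, adjusted p = 0.049), and no other gene of these 6 lists was called in edgeR. At an unadjusted p under 0.05, 4 kinetochore genes were higher and 1 lower, and DESeq2 called 1 of them higher. For both agents against PgLPS, 3590 of all 11656 tested genes were under that p in either direction. After adjustment edgeR called 19.5% of all tested genes in that comparison.

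**Figure D5:**
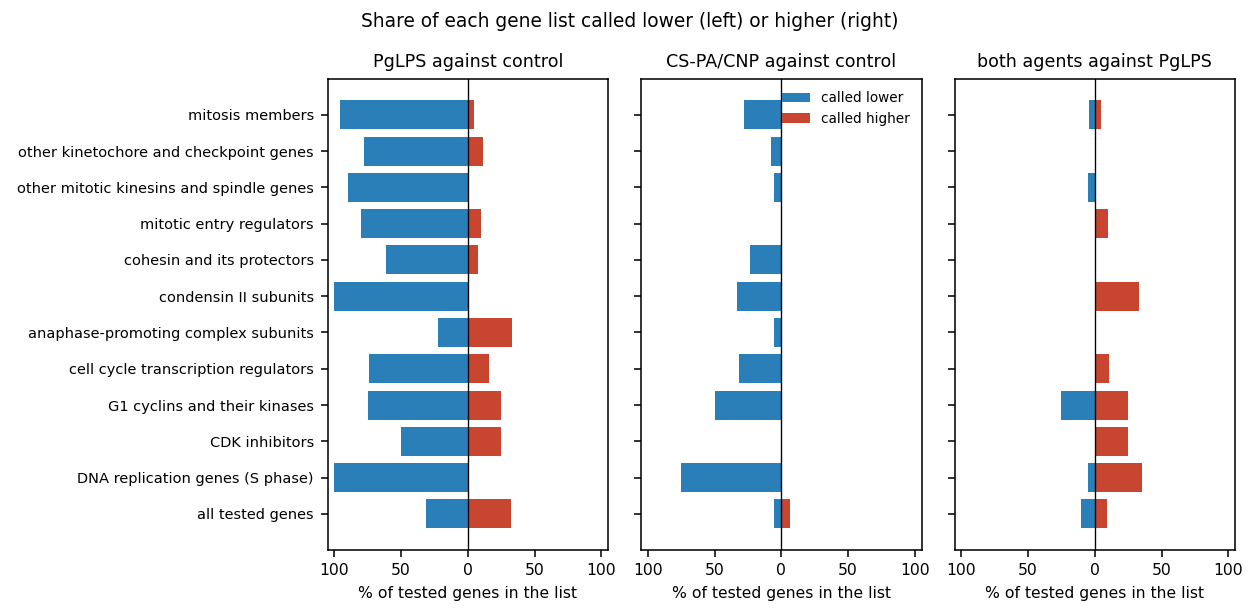
Share of the tested genes of each list that was called lower (blue, to the left) or higher (red, to the right) in 3 comparisons, as a percentage; the bottom bar is all 11656 tested genes. With PgLPS the blue bars are long for most lists and shortest for the anaphase-promoting complex, and with CS-PA/CNP alone the DNA replication genes have the longest bar.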

How the data were processed

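The deposited table holds whole-number values per gene for 12 libraries, which its column headers name read counts. Its 12 FPKM columns of the same libraries were not used. The submitters' processing notes list DESeq 1.30.0, HTSeq 0.9.1, HISAT2 2.0.5 and cutadapt 1.15 without saying what each did. Genome build, annotation and strand setting are not stated. Count columns were assigned to groups by the letters in their names (C control, M CS-PA/CNP, L PgLPS, LM both). The labels do not explain these letters, and library numbers are those of the columns. Symbols, chromosomes and the deposited gene lengths are the table's.

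Counts were fitted with edgeR 4.0.16 in R 4.3.3: quasi-likelihood F test, TMM, filterByExpr by group (11656 genes with 99.97% of reads), 1 mean per group over all 12 libraries, BH adjustment over tested genes, threshold 0.05, 2-sided. The interaction is both minus PgLPS, minus CS-PA/CNP minus control. Errors beside log2 fold changes are standard errors. A test was also run on counts simulated from the means and spread fitted to these data, and no result here rests on it. Counts of libraries in the same group differed by more than sampling noise (chi-square per gene 2.75 to 17.1). The alternatives were DESeq2 1.42.0, library totals, no filter, only the 2 groups compared, and leaving out each library.

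Values in every library are given for the 2 genes of each role with the highest mean RPKM. Mki67, Top2a, Ncapd2, Kif23 and Cenpf were added after their values were seen. From other lists the 3 genes with the highest CPM, and genes called against most of their list, are named; others there were chosen after their values were seen. The 43 genes, the lists and the roles were chosen with earlier results of these data known. Promoters are RefSeq's (GRCm38.p6).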

Additional observations from a re-analysis of the deposited data

Results flagged for a closer look

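For 7 of the 43 genes the effect of CS-PA/CNP differed with and without PgLPS by the interaction test of edgeR. This count was near the 15.8% of all tested genes that were called so. On the log2 scale the difference, with PgLPS minus without, was 0.66 for Cdk1, 0.75 for Mad2l1, 1.13 for Kif11, 1.69 for Kif23, 0.90 for Top2a and 0.69 for Ncapd2. It was −0.57 for Mki67. Leaving out any 1 library, DESeq2, library totals and no filter each kept these calls except that of Cdk1, which was lost without library 2 of both agents. Kif23 rests on 43 reads with PgLPS and 100 with both agents. Mki67 is the gene of the set that fell in each of the 3 comparisons of a single agent or of both with PgLPS.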

How the results depend on the processing

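The calls of PgLPS against control held for all 43 genes in each of the 16 alternatives, and those of both agents against control for all but Incenp. With library totals in place of TMM, PgLPS against control gave 1945 genes higher and 6963 lower and a median over the 43 genes of −2.82. The same setting gave 1808 higher, 6683 lower, 1 of the 43 higher and a median of −2.66 for both agents against control. With only the 2 groups in the fit, 0 of the 43 genes were called higher with both agents than with PgLPS. Leaving out 1 library at a time, the median over the 43 genes ran from −2.45 to −2.27 for PgLPS against control, from −2.41 to −2.19 for both agents against control, from 0.02 to 0.18 for both agents against PgLPS and from 0.29 to 0.58 for the interaction. The number of the 43 called lower with CS-PA/CNP ran from 5 to 14, the number of all genes from 406 to 763, and the number of the 43 higher with both agents than with PgLPS from 1 to 3. The cause of these changes was not tested. No call and no median over the 43 genes changed direction, but fold changes of genes that were not called did: without 1 library Bub1 went from 0.53 to −0.45 for both agents against PgLPS, and Ncapg from 0.13 to −0.53 for the interaction. No paired analysis was possible because no label says which count column carries which title number. Depth limits the genes near 1 CPM, and nothing here separates fewer dividing cells from less RNA per cell.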

Other observations

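All 20 DNA replication genes fell with PgLPS (median −2.48, beside 0.00 for all tested genes), and 15 fell with CS-PA/CNP alone. In these comparisons 31.6% and 5.61% of all tested genes were called lower. The sliding clamp gene Pcna stood at 809 ± 31 CPM in control, 614 ± 28 with CS-PA/CNP, 289 ± 25 with PgLPS and 462 ± 38 with both. The helicase subunit gene Mcm6 stood at 309 ± 7.1, 217 ± 17, 44.0 ± 5.1 and 64.7 ± 11 CPM, and Mcm3 at 142 ± 4.3, 110 ± 1.9, 28.5 ± 2.5 and 31.9 ± 4.1. With both agents 7 of the 20 were higher than with PgLPS and 1 lower, Tyms, thymidylate synthase (−1.0 ± 0.21, edgeR BH-adjusted p = 0.0023). Of all 11656 tested genes, 1098 were called higher with both agents than with PgLPS and 1170 lower. The interaction was positive in 15 of the 20, against 6 of the 43 mitosis genes and 7.46% of all tested genes. The difference between these shares was not tested.

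Of 19 tested regulators of cell cycle transcription, 14 fell and 3 rose with PgLPS (median −0.90). Across all tested genes 31.6% were called lower and 32.2% higher. The 3 regulators that rose were E2f4 (0.42 ± 0.08), E2f3 (0.23 ± 0.08) and E2f5 (0.58 ± 0.15). Tfdp1, the partner of the E2F proteins, fell from 97.2 ± 4.9 to 52.1 ± 3.2 CPM. Foxm1 (−2.75 ± 0.19) and Mybl2 (−2.72 ± 0.25), activators of late cell cycle genes named after their values were seen, fell with PgLPS and also with CS-PA/CNP (−0.56 ± 0.15 and −0.79 ± 0.21). Myc stood at 79.2 ± 2.6 CPM in control, 91.8 ± 13 with CS-PA/CNP, 26.1 ± 3.9 with PgLPS and 56.1 ± 5.1 with both, a difference between the last 2 of 1.10 ± 0.11 (edgeR BH-adjusted p = 6.6e-07).

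With PgLPS 31.6% of all tested genes were called lower and 32.2% higher. Of 8 G1 cyclins and kinases, 6 fell with PgLPS (median −1.11) while Ccnd3 (1.76 ± 0.09) and Ccnd2 (0.92 ± 0.14) rose. Ccnd1, the D-type cyclin with the highest CPM, stood at 344 ± 13, 296 ± 33, 75.3 ± 3.2 and 187 ± 9.3 CPM in control, CS-PA/CNP, PgLPS and both. Its kinase partners Cdk6 (176 ± 17, 146 ± 11, 77.1 ± 5.1 and 114 ± 12) and Cdk4 (112 ± 5.4, 111 ± 6.4, 70.4 ± 6.0 and 75.1 ± 5.0) fell with PgLPS as well. Of 8 CDK inhibitors, 4 fell and 2 rose (median −0.84), the latter near the share over all genes: Cdkn1a, which encodes p21, stood at 124 ± 8.3 CPM in control, 269 ± 22 under PgLPS and 383 ± 4.1 under both agents, and Cdkn2d from 7.40 ± 0.73 to 12.6 ± 1.1 with PgLPS. Cdkn1b fell from 38.3 ± 2.1 to 25.1 ± 1.7.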
